A study of Mus musculus with 9 samples.

Results

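The RNases of the Regnase family and the Roquin proteins were examined in RiboSeq data from macrophages that differ in tristetraprolin (TTP). The group was defined by name as 5 genes, Zc3h12a (Regnase-1), Zc3h12c (Regnase-3), Zc3h12d (Regnase-4), Rc3h1 (Roquin-1) and Rc3h2 (Roquin-2), out of 16921 gene identifiers in the deposited table. All 5 had a mean footprint level of at least 10, the filter that 10092 genes passed. RiboSeq counts ribosome-protected mRNA fragments per gene, so that a level reflects both the amount of an mRNA and its load with ribosomes. All cells were TTP-deficient bone marrow-derived macrophages (BMDMs), immortalized with the oncogenes hcmyc and hRasG12V and sorted for CD11b and F4/80. They carried a doxycycline-inducible vector for GFP alone, for GFP fused to wild-type TTP (GFP-TTP), or for GFP fused to TTP-AA, the mutant whose MK2 phosphorylation sites are replaced by alanine (GFP-TTP-AA). Every line received doxycycline (1 µg/ml) for 6 h and LPS (1 µg/ml) for 1 h, and 3 libraries were made per condition. Each condition was a separately transduced line, so that the construct and the line that carries it cannot be told apart, and no library without LPS was analysed here.

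Regnase and Roquin proteins shorten the life of inflammatory mRNAs, as TTP does, but by another route. TTP binds AU-rich elements in the 3′UTR and recruits the deadenylase complex CCR4-NOT. Regnase-1 is an endoribonuclease that cuts mRNAs at stem-loops with a pyrimidine-purine-pyrimidine loop, among them Il6, Il12b and its own mRNA, and it acts on translated mRNAs together with the helicase UPF1. Roquin-1 and Roquin-2 bind the same kind of stem-loop, known from Tnf as the constitutive decay element, through their ROQ domain and recruit CCR4-NOT. In activated macrophages Regnase-1 protein is phosphorylated and degraded downstream of Toll-like receptors, and its mRNA is induced again by NF-κB.

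The deposited values were found to be what the authors' model had fitted for each gene and library, not observed counts. After a term for condition and a term for replicate number, the log2 values of all genes had a residual SD of 5.96e-14. Each gene's ratio between any pair of conditions is therefore equal in replicates 1, 2 and 3 by construction. No error of a difference can be computed from such values, so that no test was run and all differences below are descriptions. What the values do hold is the size of the replicate term, which is set beside each difference. Size factors of the libraries ran from 0.414 to 2.13, with replicate 2 the smallest library in each condition, and a library held 11180 to 13154 genes whose fitted value reached 1. Levels below are fitted values divided by these size factors.

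Zfp36, the gene of TTP, had levels of 443, 437 and 500 in the GFP libraries 1, 2 and 3, of 896, 883 and 1010 in the GFP-TTP libraries and of 1481, 1460 and 1670 in the GFP-TTP-AA libraries. Both lines with a TTP construct were above GFP, while the constructs themselves set no order for wild-type TTP and TTP-AA. The TTP-AA line was nevertheless 1.65-fold above the wild-type line. By western blot the paper reports comparable protein amounts for both constructs. Footprints were also present in the TTP-deficient GFP line. The authors' mean of Zfp36 was 1.24 times the mean of its fitted levels, while for the 5 members this ratio was between 1.00 and 1.09. Of 8 macrophage markers, 7 had a level of at least 10, and Mertk was at 4.92. Their summed level ran from 74013 (GFP-TTP) to 106427 (GFP-TTP-AA), most of it from Lyz2. Emr1, which encodes the sorting marker F4/80, had levels of 3662, 2293 and 5337 in the 3 lines (GFP, then wild-type TTP, then TTP-AA) and Fcgr1 had 129, 67.2 and 110, while Itgam, which encodes CD11b, had 2967, 3191 and 3187. Markers of T cells, B cells, dendritic cells and fibroblasts were absent from the table or below 10, and of the neutrophil markers only S100a8 was listed, at 27.0 in GFP, 25.6 under wild-type TTP and 55.8 under TTP-AA. In such bulk libraries fewer cells of a type and less RNA per cell cannot be told apart.

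Zc3h12a was the Regnase gene with the most footprints. Its level was 445, 550 and 790 in the GFP libraries 1, 2 and 3, 440, 544 and 781 in the GFP-TTP libraries, and 705, 871 and 1251 in the GFP-TTP-AA libraries. The GFP and GFP-TTP lines were thus nearly at the same level, with geometric means of 578 and 572 and a log2 difference of -0.02. The GFP-TTP-AA line, at 916, was 1.58-fold above GFP (log2 0.66) and 1.60-fold above GFP-TTP (log2 0.68). The libraries of the conditions overlapped, because replicate 3 was 1.77-fold above replicate 1 in every line, a wider gap than that between the lines. The gene lies at chr4:125118423-125127840 on the minus strand of GRCm38.

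Zc3h12c, an endoribonuclease of the same family that is expressed in myeloid cells, formed a series over the 3 lines. Its level was 168, 241 and 621 in the GFP libraries, 237, 340 and 876 in the GFP-TTP libraries and 312, 448 and 1152 in the GFP-TTP-AA libraries. The geometric means were 293, 413 and 544. GFP-TTP was 1.41-fold above GFP (log2 0.50), and GFP-TTP-AA was 1.86-fold above GFP (log2 0.89) and 1.32-fold above GFP-TTP (log2 0.40). Replicate 3 stood 3.69-fold above replicate 1 in each line, so that the libraries of all 3 conditions overlapped widely. By its span over the replicate numbers it ranked 10 among the 10092 genes. The gene lies at chr9:52111344-52168572 on the minus strand.

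Zc3h12d, the Regnase gene best known from lymphocytes, had the fewest footprints of the 3 and the largest difference between lines. Its level was 45.7, 42.6 and 28.6 in the GFP libraries, 26.4, 24.6 and 16.6 in the GFP-TTP libraries and 79.1, 73.7 and 49.6 in the GFP-TTP-AA libraries. The fitted values of the 3 conditions did not overlap, with GFP-TTP lowest and GFP-TTP-AA highest. Depending on the comparison, 25.7% to 34.5% of all genes showed no overlap. Fitted values leave out the spread of observed counts, so that this does not show whether observed libraries separate. Of the macrophage markers, Emr1, Lyz2, Csf1r and Cd68 had the same order, while Itgam, Cd14, Fcgr1 and Mertk did not. The part of macrophage markers in the result was not tested. GFP was 1.73-fold above GFP-TTP (log2 difference of GFP-TTP from GFP -0.79), and GFP-TTP-AA was 1.73-fold above GFP (log2 0.79). GFP-TTP-AA was 2.99-fold above GFP-TTP (log2 1.58), and it ranked 39 from the highest difference among the 10092 genes. Differences in this comparison were more spread out among genes at levels of 10 to 50, with an SD of 0.43 on the log2 scale, than among those of at least 500, with 0.31. Replicate 3 was the lowest in every line, the reverse of Zc3h12a and Zc3h12c, and the replicate numbers spanned 1.60-fold. The gene lies at chr10:7832470-7870396 on the plus strand. Zc3h12b, the family member on the X chromosome, had levels of 6.59, 6.56 and 6.87 in the 3 lines, in the same order, and did not reach the filter.

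**Figure D1:**
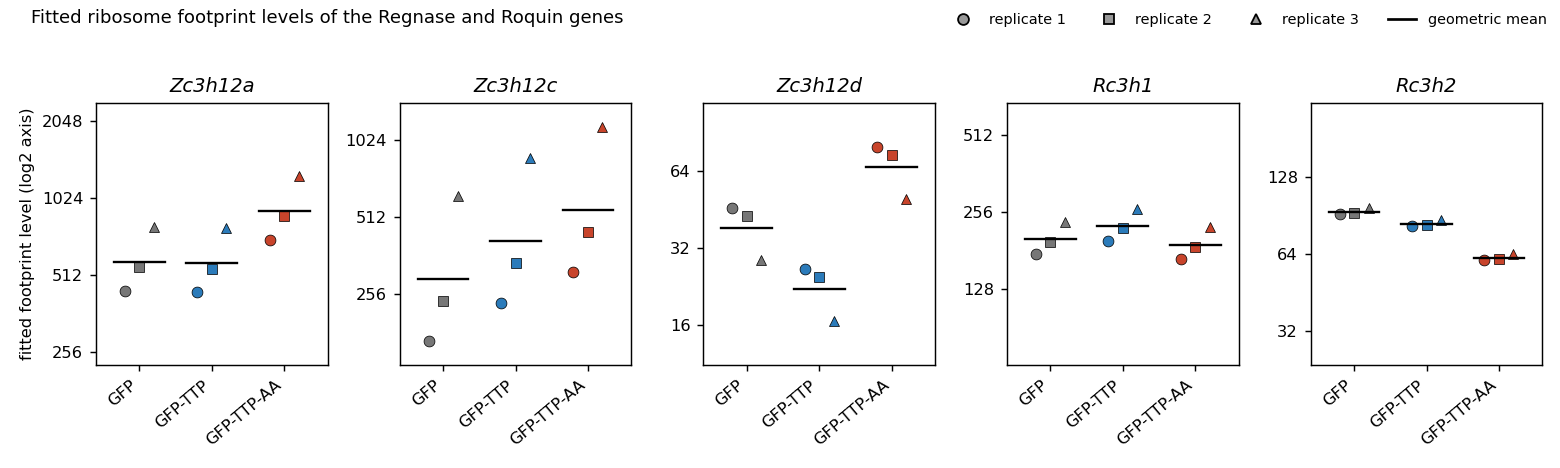
Fitted footprint level, divided by the size factor, of the 5 genes in the 9 libraries on log2 axes of equal span (vertical) by condition (horizontal), with circles, squares and triangles for replicates 1, 2 and 3 and a line at the geometric mean. Zc3h12a and Zc3h12c are highest in GFP-TTP-AA with replicate 3 on top of each group, Zc3h12d is lowest in GFP-TTP and highest in GFP-TTP-AA, and Rc3h2 is lowest in GFP-TTP-AA with its replicates close together. The spacing of the replicates is the same in each condition because the values are fitted.

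The Roquin genes were lowest in GFP-TTP-AA, the line in which the Regnase genes were highest. Rc3h1 had levels of 175, 196 and 234 in the GFP libraries, 198, 221 and 264 in the GFP-TTP libraries and 167, 187 and 224 in the GFP-TTP-AA libraries. These ranges overlapped in all 3 conditions. The geometric means were 201, 226 and 191, with log2 differences of 0.17 for GFP-TTP against GFP, -0.07 for GFP-TTP-AA against GFP and -0.24 for GFP-TTP-AA against GFP-TTP. Replicate 3 was 1.34-fold above replicate 1. The gene lies at chr1:160906418-160974978 on the plus strand.

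Rc3h2, its paralogue, was lowest where the Regnase genes were highest. Its level was 91.2, 92.5 and 96.5 in the GFP libraries, 81.9, 83.1 and 86.7 in the GFP-TTP libraries and 60.3, 61.2 and 63.9 in the GFP-TTP-AA libraries. The fitted values of the conditions did not overlap, and the replicate numbers spanned 1.06-fold, the narrowest of the 5 genes. Depending on the comparison, 25.7% to 34.5% of all genes showed no overlap, and the spread of observed counts is not in these values. The geometric means were 93.4, 83.9 and 61.8, so that GFP was 1.51-fold above GFP-TTP-AA. The log2 differences were -0.15 for GFP-TTP against GFP, -0.60 for GFP-TTP-AA against GFP and -0.44 for GFP-TTP-AA against GFP-TTP. The second of these lay just past a 1.5-fold difference, and it was short of it with a pseudocount of 10 (-0.53) or with the median of its chromosome subtracted (-0.57). The gene lies at chr2:37370069-37422903 on the minus strand.

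The ratio of the Roquin genes to each other differed accordingly. Rc3h1 had 2.15 times the level of Rc3h2 in GFP, 2.69 times with wild-type TTP and 3.10 times with TTP-AA, without correction for length. Per kb of coding sequence the order of the 5 genes could be compared. Zc3h12a had 323 footprints per kb in GFP, 320 with wild-type TTP and 512 with TTP-AA. Zc3h12c followed with 110, 156 and 205, and Rc3h1 with 59.2, 66.7 and 56.4. The last places differed between the lines, as Rc3h2 had 26.2, 23.6 and 17.4 per kb and Zc3h12d 23.9, 13.8 and 41.3. In GFP these neighbours in the order were closer together than the replicates of Zc3h12d. The median over 9962 genes with a coding length was 147 per kb, so that of the 5 genes Zc3h12a and Zc3h12c were above it on average over the 3 lines.

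The first comparison asks what wild-type TTP does when it is put back. Against GFP, Zc3h12d was the 1 member at least 1.5-fold lower in GFP-TTP, beside 1.81% of the 10092 genes. None of the 5 was at least 1.5-fold higher, beside 0.961% of all genes. Zc3h12c was the closest, at 1.41-fold. The median difference of the 5 genes was -0.02 and that of all genes 0.00 on the log2 scale. The libraries of GFP and GFP-TTP did not overlap for Zc3h12d and Rc3h2, as for 25.7% of all genes.

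The second comparison sets the mutant that MK2 cannot phosphorylate at these sites against the absence of TTP. All 3 Regnase genes were at least 1.5-fold higher in GFP-TTP-AA than in GFP, Zc3h12c by 1.86-fold, Zc3h12d by 1.73-fold and Zc3h12a by 1.58-fold. Of all genes 2.20% were, and ranked from the highest difference the 3 genes were numbers 59, 78 and 144. Rc3h2 was the 1 member at least 1.5-fold lower, beside 1.34% of all genes, and it ranked 128 from the lowest. The median of the 5 genes was 0.66. The libraries of both conditions did not overlap for Zc3h12d and Rc3h2, as for 27.1% of all genes.

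The third comparison contrasts the mutant that lacks the phosphorylation sites with wild-type TTP. The lines also differed in footprints on Zfp36, which were 1.65-fold higher in GFP-TTP-AA. The paper, in contrast, reports comparable amounts of both proteins. The part of this footprint difference in the values below was not tested. Zc3h12a and Zc3h12d were at least 1.5-fold higher in GFP-TTP-AA, 2 of the 5 genes beside 4.28% of all genes, with Zc3h12c at 1.32-fold. None of the 5 was at least 1.5-fold lower, beside 2.51% of all genes, and Rc3h2 came closest with a log2 difference of -0.44. The median of the 5 genes was 0.40. Again the libraries did not overlap for Zc3h12d and Rc3h2, as for 34.5% of all genes. The 3 comparisons use the same 9 libraries in pairs of conditions, so that they are not independent of each other.

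**Figure D2:**
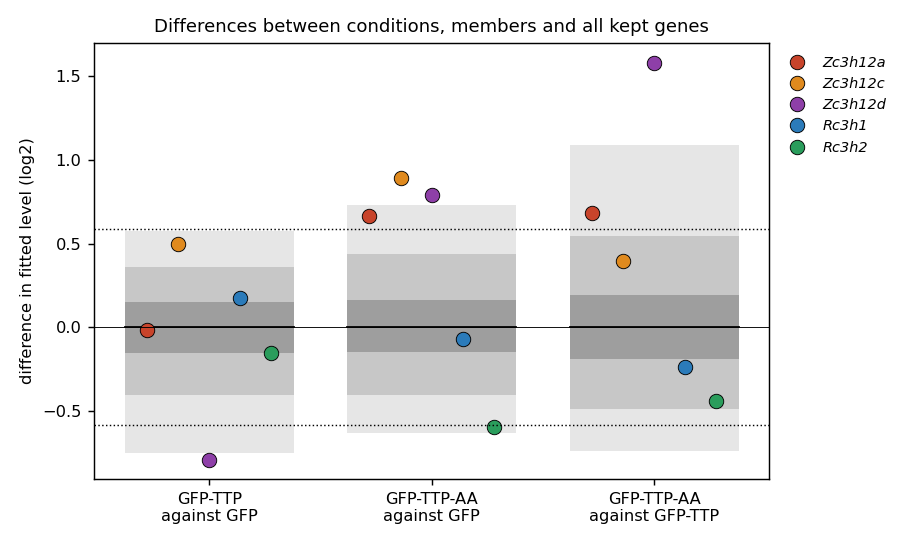
Difference in fitted level on the log2 scale (vertical) of the 5 genes (coloured points) in the 3 comparisons (horizontal). Grey bands hold the 10092 genes between percentiles 25 and 75, 5 and 95, and 1 and 99, with their median as a line, and dotted lines mark 1.5-fold. Zc3h12d lies below the widest band in GFP-TTP against GFP and above it in both other comparisons, Zc3h12c lies above it in GFP-TTP-AA against GFP, and Rc3h1 stays within the band of percentiles 5 to 95 throughout.

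Differences between the replicate numbers were as large as those between the lines for several of these genes. The span from the lowest to the highest replicate number was at least 1.5-fold for Zc3h12a, Zc3h12c and Zc3h12d, 3 of the 5 genes beside 10.7% of all genes. For Zc3h12a and Zc3h12c the span over the replicate numbers (log2 0.83 and 1.89) was wider than the span over the conditions (log2 0.68 and 0.89). For Zc3h12d and Rc3h2 the span over the conditions (log2 1.58 and 0.60) was wider than that over the replicate numbers (log2 0.68 and 0.08). For Rc3h1 the span over the replicate numbers (log2 0.42) was also wider than that over the conditions (log2 0.24), and 26.6% of all genes had a larger one over the replicate numbers. In the authors' model the second term is the library date, whose values are not given in the labels. The part of the library date in these differences was not tested.

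**Figure D3:**
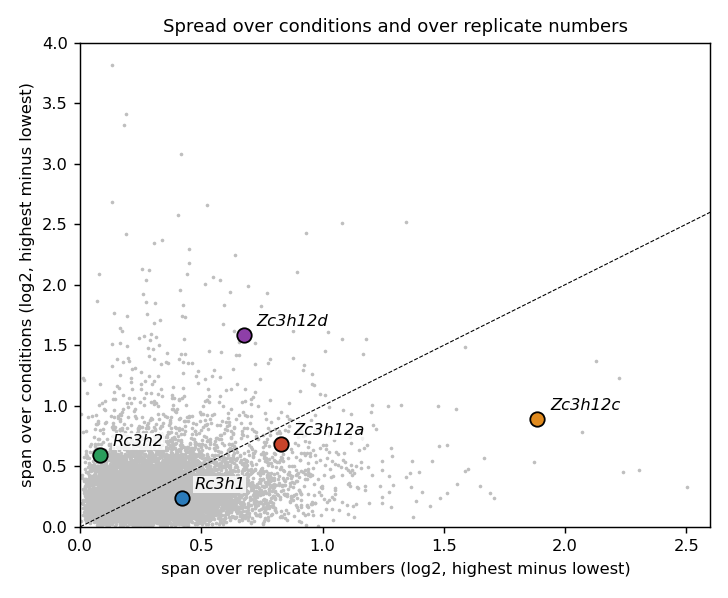
Span over the 3 conditions (vertical) against span over the 3 replicate numbers (horizontal), each the highest minus the lowest log2 term of a gene, for the 10092 genes (grey, 2 of them outside the axes) and the 5 genes (coloured). The dashed line marks equal spans. Zc3h12c stands far to the right at 1.89, Zc3h12d and Rc3h2 lie above the line, and Zc3h12a, Zc3h12c and Rc3h1 lie below it.

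The annotated 3′UTRs were searched for both kinds of element, since the 5 mRNAs could themselves carry them. The search was for the pentamer ATTTA and the heptamer TATTTAT, which contains it, on the strand of the mRNA, and for hairpins of 6 Watson-Crick pairs that close a pyrimidine-purine-pyrimidine loop. Zc3h12a has a 3′UTR of 856 nt with 3 pentamers, no heptamer and 3 hairpins. Zc3h12c has 4062 nt with 14 pentamers, 2 heptamers and 1 hairpin. Zc3h12d has 2327 nt with 2 pentamers and neither heptamer nor hairpin. Rc3h1 has 7181 nt with 20 pentamers, 2 heptamers and 4 hairpins, 2 of which overlap in a repeat of T and A. Rc3h2 has 5160 nt with 25 pentamers, 3 heptamers and 1 hairpin. Among 9873 genes that passed the filter and have a 3′UTR, of a median of 1027 nt, 68.2% hold the pentamer, 28.7% the heptamer and 9.34% such a hairpin. Long 3′UTRs hold them more often, and of 686 with at least 4000 nt, 69.0% hold the heptamer and 29.0% the hairpin. With 6 perfect pairs required, the search found no hairpin in Il6 or Il12b, named above as cut at such stem-loops. A gene without a hairpin in this search can thus still hold a recognised site.

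The hairpins are shown because they are the kind of site that Regnase and Roquin proteins recognise, with the stem and loop in capitals and 2 flanking bases on each side. Zc3h12a has all of its 3 within a short 3′UTR, and that of Tnf, the known constitutive decay element, is given for comparison.
Zc3h12a, chr4:125119067-125119085, minus strand: ttGATACACATTGTATCtc
Zc3h12a, chr4:125118885-125118903, minus strand: ttAGGCACCATGTGCCTgc
Zc3h12a, chr4:125118661-125118679, minus strand: gaTTTAAATATTTTAAAtg
Zc3h12c, chr9:52113467-52113485, minus strand: atCTGAACCATGTTCAGca
Rc3h1, chr1:160971658-160971676, plus strand: atAACTTCTGTGAAGTTgc
Rc3h1, chr1:160974943-160974961, plus strand: agCATTTATATTAAATGat
Rc3h2, chr2:37373807-37373825, minus strand: ttAACTTCTGTGAAGTTgt
Tnf, chr17:35199583-35199601, minus strand: atGTTTTCTGTGAAAACgg

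Rc3h1 and Rc3h2 share the hairpin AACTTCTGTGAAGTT letter for letter over its 15 bases. Of the 9873 searched 3′UTRs, those of these 2 genes were the only ones that hold it. It lies 3869 nt behind the stop codon in Rc3h1 and 1416 nt behind it in Rc3h2. The loop TGT is also that of the Tnf hairpin, with a different stem. Whether these sites are bound in macrophages was not measured in these libraries.

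The heptamers are shown as the sites of the type that TTP prefers, in capitals with 8 bases on either side. Zc3h12c, Rc3h1 and Rc3h2 hold them, and Zc3h12a and Zc3h12d hold none in this annotation. In GFP-TTP-AA against GFP, the members with a heptamer differed by log2 0.89 (Zc3h12c), -0.07 (Rc3h1) and -0.60 (Rc3h2). Those without it differed by 0.66 (Zc3h12a) and 0.79 (Zc3h12d). The part of these sites in the differences was not tested.
Zc3h12c, chr9:52114865-52114887, minus strand: ataatcatTATTTATaggaacaa
Zc3h12c, chr9:52111986-52112008, minus strand: cagtaataTATTTATaaaacaat
Rc3h1, chr1:160970046-160970068, plus strand: ttactcatTATTTATtgagatga
Rc3h1, chr1:160971400-160971422, plus strand: ttcccatgTATTTATtcttttgc
Rc3h2, chr2:37374759-37374781, minus strand: agctgcttTATTTATctttttca
Rc3h2, chr2:37374501-37374523, minus strand: tttgttaaTATTTATacacaggc
Rc3h2, chr2:37373290-37373312, minus strand: agacatttTATTTATtttactct

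**Figure D4:**
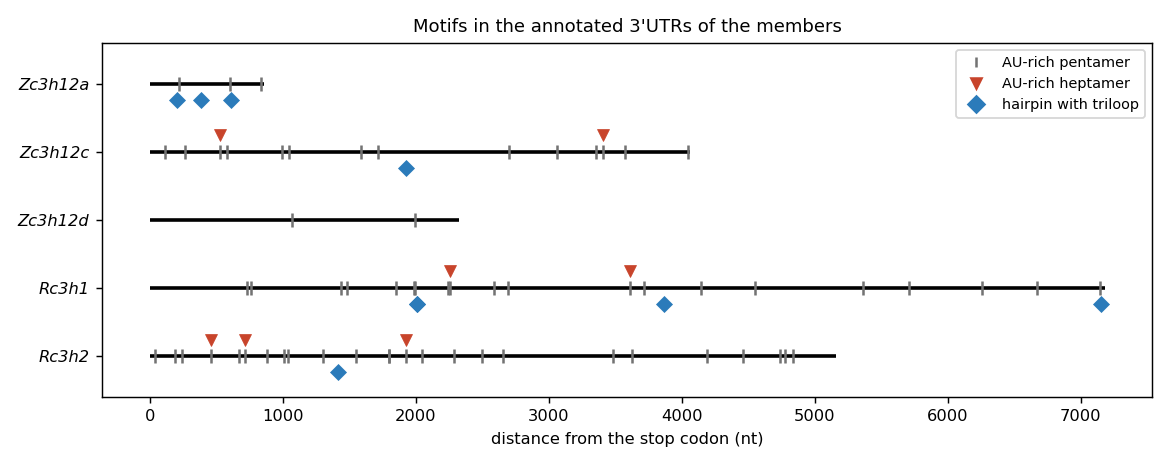
Position of AU-rich pentamers (grey bars), AU-rich heptamers (red triangles) and hairpins with a 3-base loop (blue diamonds) along the annotated 3′UTRs of the 5 genes, in nt from the stop codon (horizontal). The 3 hairpins of Zc3h12a lie within 856 nt, the 3′UTR of Zc3h12d holds 2 pentamers alone, and the 2 overlapping hairpins of Rc3h1 are drawn on top of each other.

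The mRNAs known as targets of Regnase or Roquin proteins were followed with a list of 24 genes, of which 19 were listed in the table and 13 passed the filter. Il12b and Il10 were among the 6 that were listed but stayed below it, and Il2, Icos, Ifng, Il17a and Ctla4 were not listed. Against GFP, no target was 1.5-fold higher or lower in GFP-TTP, beside 0.961% and 1.81% of all genes. Differences ran from -0.52 for Tnf to 0.24 for Tfrc on the log2 scale. In GFP-TTP-AA against GFP, Zc3h12a, itself a member, was the 1 target at least 1.5-fold higher, beside 2.20% of all genes. At least 1.5-fold lower were 2 targets, beside 1.34% of all genes. These were Ier3, an immediate-early feedback gene, with a log2 difference of -1.20, and Tnf, with -0.63. The paper reports both mRNAs as bound by TTP and TTP-AA. For both genes it also reports reduced mRNA, weaker polysome association, and protein that was lower with TTP-AA than with wild-type TTP. The part of TTP binding, or of Regnase and Roquin proteins, in the differences of these genes was not tested here. In GFP-TTP-AA against GFP-TTP, Zc3h12a was the 1 target at least 1.5-fold higher and Ier3 the 1 lower, with -0.82. Of all genes 4.28% were higher and 2.51% lower. The medians over the 13 genes were -0.02, 0.00 and -0.05 in the 3 comparisons, beside 0.00 in each over all genes.

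Il6, the first described target of Regnase-1, was among the 13 with levels of 29.9 in GFP, 29.5 in GFP-TTP and 32.3 under TTP-AA. A few others were picked out after their values were seen. Nfkbiz, which encodes the nuclear cofactor IκBζ, had levels of 3500, 3020 and 4261, and Rel, which encodes the NF-κB subunit c-Rel, had 376, 369 and 511. Rel differed between the replicate numbers by 2.15-fold with replicate 3 highest, as it was for Zc3h12a and Zc3h12c. In all, 3 of the 13 targets (Rel, Ptgs2 and Zc3h12a) spanned at least 1.5-fold over the replicate numbers, beside 10.7% of all genes. Ptgs2 was barely past that bound, at 1.501-fold. Each of the 3 was highest in replicate 3, and the share of all genes highest there was not counted. Of the 19 listed targets, 7 hold a hairpin and 13 a heptamer in the annotated 3′UTR. Among the 9873 searched genes that passed the filter these shares were 9.34% and 28.7%, while 6 of the 19 did not pass it. The list was made of known targets of proteins that recognise such hairpins, so that its count of hairpins is not an independent result.

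The partners and regulators of the 5 proteins were all measured, as the 22 genes of this list passed the filter. None was 1.5-fold apart in any of the 3 comparisons, where 0.961% to 4.28% of all genes were past 1.5-fold in a given direction, so that a count of 0 among 22 genes is near the background. The ranges on the log2 scale were -0.44 (Bcl10) to 0.27 (Btrc) for GFP-TTP against GFP, -0.45 (Irak1) to 0.53 (Tank) for GFP-TTP-AA against GFP, and -0.48 (Nufip2) to 0.55 (Ikbke) for GFP-TTP-AA against GFP-TTP. The medians were -0.01, 0.01 and 0.03.

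These extremes have distinct roles. Nufip2, a cofactor that Roquin proteins bind, had levels of 680 in GFP, 717 in GFP-TTP and 514 under TTP-AA, lowest in the line in which Rc3h2 was lowest. Tank, an adaptor that takes part in the deubiquitination of TRAF6 together with Regnase-1, had levels of 530, 537 and 767, and Ikbke, an IKK-related kinase, had 142, 140 and 205. Upf1, the helicase on which Regnase-1 depends, stayed between 886 and 986. Malt1, the protease that cleaves Regnase and Roquin proteins, had levels of 280, 278 and 280 in the 3 lines, while its replicate numbers spanned 1.97-fold. Malt1, Traf6 and Tank were the 3 of the 22 genes with a span of at least 1.5-fold over the replicate numbers. Beside 10.7% of all genes, this count is near the background. Nufip2, Tank, Ikbke, Upf1 and Malt1 were singled out after their values were seen.

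**Figure D5:**
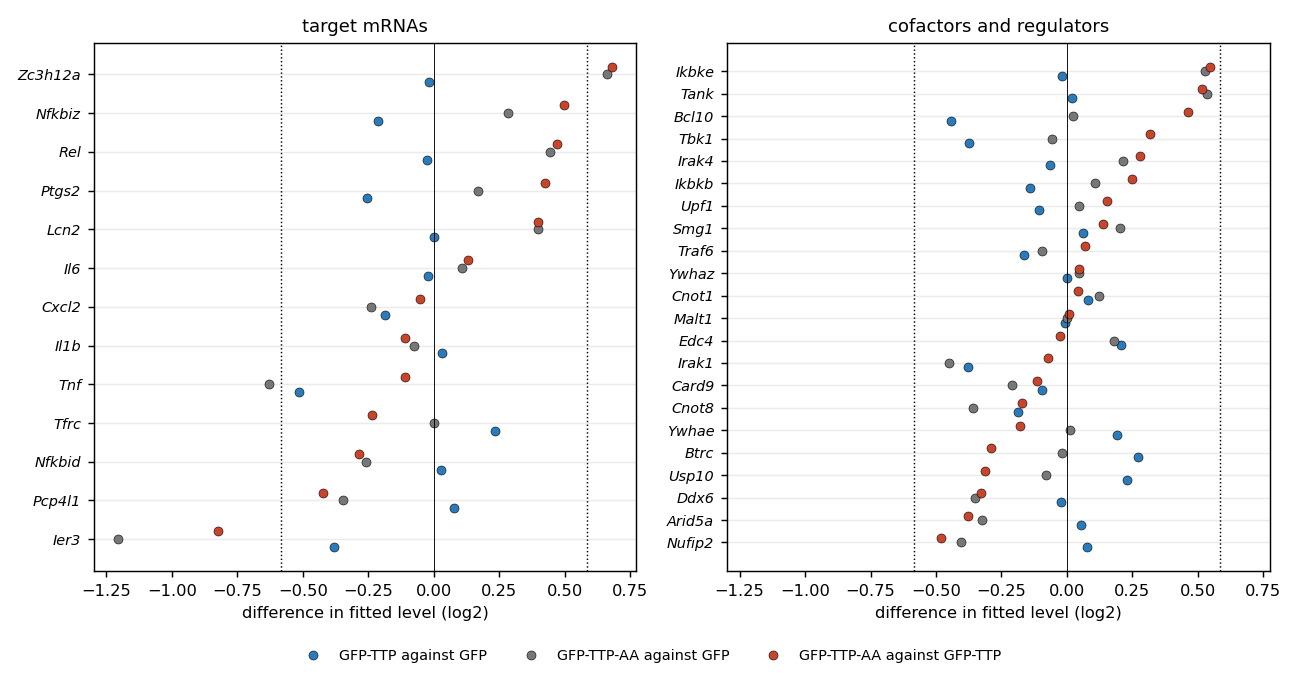
Difference in fitted level on the log2 scale (horizontal) for the 13 target mRNAs (left) and the 22 cofactors and regulators (right) that passed the filter, in the 3 comparisons (colours), with dotted lines at 1.5-fold. Zc3h12a on the high side and Ier3 and Tnf on the low side are the targets past the lines, and none of the cofactors is.

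Genes next to the members were read as a control for differences between the lines that take in a whole region. Zc3h12d lies on chromosome 10, whose 481 genes had median log2 differences of -0.11 in GFP-TTP against GFP and 0.17 in GFP-TTP-AA against GFP-TTP, in the direction of Zc3h12d. With the median of the chromosome subtracted, Zc3h12d differed by -0.68 and 1.41. Among the 12 genes within 1 Mb of it the medians were -0.02 and 0.12. One of them, Ulbp1, a ligand of the receptor NKG2D, had the same order as Zc3h12d, with levels of 174 in GFP, 61.4 in GFP-TTP and 209 under TTP-AA. The rest were within 1.5-fold in all 3 comparisons. Whether a change of the chromosome or region in these lines takes part in the differences of Zc3h12d was not tested.

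For the other members the chromosome medians lay between -0.06 and 0.06. Of the 15 neighbours of Zc3h12a, the 3 of Zc3h12c and the 5 of Rc3h2, none was 1.5-fold apart in any comparison. Of the 11 neighbours of Rc3h1, 1 was, Tnfsf4, at a log2 difference of 1.01 in GFP-TTP-AA against GFP-TTP, while Rc3h1 was at -0.24. For Rc3h2 in GFP-TTP-AA, subtracting the median of its chromosome gave -0.57 against GFP, which is short of 1.5-fold, and -0.38 against GFP-TTP.

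The pattern of each gene over the 9 libraries was also compared with that of all other genes, by the Euclidean distance between log2 values centred on each gene's mean. Nearest to Zc3h12a were Skil (0.13), which encodes a repressor of TGF-β signalling, and Igsf6 (0.22). Nearest to Zc3h12c were Ppap2b (0.32), a lipid phosphatase, and the collagenase Mmp13 (0.69), with spans over the replicate numbers of 3.72-fold and 2.73-fold. Nearest to Zc3h12d were Gcm2 (0.49) and the death receptor Tnfrsf21 (0.58). Nearest to Rc3h1 were Smek2 (0.07) and Nfix (0.09), and nearest to Rc3h2 were Sdk2 (0.12) and Gpsm1 (0.13). Among the 5 genes themselves the closest pair was Rc3h1 and Rc3h2 at 0.77, and the most distant was Zc3h12c and Zc3h12d at 3.71. No pair of Regnase genes was closer than 1.51, the distance of Zc3h12a and Zc3h12c. Zc3h12a lay closer to Rc3h1, at 1.29, so that the distances did not separate the 2 families. A gene with little spread lies near any other gene with little spread, so that short distances are easier to reach for the Roquin genes.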

How the data were processed

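RiboSeq was analysed in 9 libraries, 3 per condition, with conditions and replicate numbers from the labels. The authors digested extracts with the ARTseq nuclease, trimmed the reads with Trim Galore, mapped them to mm10 with TopHat at up to 2 places per read, counted them per gene with HTSeq and fitted the counts with DESeq2 1.6.3, with terms for library date and condition. TopHat2 2.0.12 is the version in the submitters' processing notes. The paper does not state how reads with 2 places were counted, so that the effect on stretches shared by paralogues is unknown.

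The signal in the authors' deposited table, named as normalized counts, was checked and holds fitted values (0 zeros), shrunken so that among 4835 genes with a level below 1 no log2 difference exceeded 0.18. Differences of genes at such low levels are therefore understated. How far those of genes at higher levels, the members among them, are shrunken was not measured. Of its 16932 lines 11 were repeats, which left 16921 identifiers, and 1 had no gene name. From the authors' comparison tables only the mean signal over all libraries was used. Their other columns hold fold changes, standard errors, statistics and p-values and were not used. A limma test had been planned only for values that hold a spread between replicates. The deposited values keep none, so that it was not run, and intervals cannot be given. Reads per library are unknown. The fitted values summed to 2570292 to 12804501 per library.

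Size factors were recovered from the genes with the fewest counts, which show 1 pattern per library. A level is the geometric mean over 3 libraries of the fitted value divided by the size factor. No pseudocount was added. Genes with a mean level of at least 10 were kept, and a difference of at least 1.5-fold was counted. Scripts used Python 3.11.15, NumPy 2.4.6 and pandas 2.3.3 and were tested on simulated data. Coordinates, coding lengths and 3′UTRs were taken from GENCODE vM21 on GRCm38, for 16836 identifiers, with 1 transcript per gene, and the printed sites were checked against the RefSeq sequence of GRCm38.p6. The members, the lists of targets, cofactors and cell markers and the alternatives were chosen with earlier results of these data known. Genes named are the members, Zc3h12b, Zfp36, at most 4 genes per list and comparison with the largest difference past 1.5-fold, and the 2 genes nearest to each member, beside those said to be picked after their values were seen.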

Additional observations from a re-analysis of the deposited data

How the results depend on the processing

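No difference of the 5 genes changed its direction under another scaling of the libraries (median centring, division by the sum of fitted values), a pseudocount of 1 or 10, an arithmetic mean, or the median of the chromosome subtracted. The largest shift was that of Zc3h12d in GFP-TTP-AA against GFP-TTP, by 0.34 with a pseudocount of 10 and by 0.17 with the chromosome median. Rc3h2 moved by more than its replicate SD with a pseudocount of 10, to -0.53 against GFP and -0.39 against GFP-TTP, and to -0.38 against GFP-TTP with the chromosome median. With that median Rc3h2 was at -0.57 against GFP, short of 1.5-fold. Leaving out replicate 1, 2 or 3 in every condition changed no difference, which the fitted values make so by construction. No paired analysis was possible because the fitted values have the same ratio in each numbered pair and no test was run.

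The counts of members depend on the fold and the level. When a level 25% above the other was enough, 1 member was higher in GFP-TTP than in GFP (Zc3h12c). In GFP-TTP-AA against GFP-TTP, 3 members in place of 2 were then higher, Zc3h12c among them, and 1 was lower (Rc3h2). At 2-fold, no member was lower in GFP-TTP than in GFP, and 0 were higher and 0 lower in GFP-TTP-AA than in GFP, while 1 (Zc3h12d) was higher in GFP-TTP-AA than in GFP-TTP. With a mean level of at least 50, Zc3h12d is left out, so that 0 members were lower in GFP-TTP than in GFP, 2 (Zc3h12a and Zc3h12c) in place of 3 were higher in GFP-TTP-AA than in GFP, and 1 (Zc3h12a) was higher in GFP-TTP-AA than in GFP-TTP. Over all 10092 genes, higher and lower, the counts at 1.5-fold were 97 and 183 for GFP-TTP against GFP. They were 222 and 135 for GFP-TTP-AA against GFP, and 432 and 253 for GFP-TTP-AA against GFP-TTP. When 25% was enough they were 703 and 842, 966 and 903, and 1442 and 1312. At 2-fold they were 16 and 40, 40 and 16, and 122 and 36. With a mean level of at least 50 the counts at 1.5-fold were 63 and 113, 142 and 98, and 291 and 207. How many genes reach that level was not counted, so that these last counts cannot be read as shares. How depth limits these values is unknown, as the reads per library are not in the table.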
